A study of Mus musculus with 24 samples.

Results

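The mitochondrial genome transcripts are the RNAs of the 37 genes carried by mouse mitochondrial DNA. These members were taken as every gene whose symbol begins with mt-, 37 of the 54532 genes counted, and comprise 13 protein-coding genes, 2 ribosomal RNAs (rRNAs) and 22 transfer RNAs (tRNAs). RNA of the left gastrocnemius, a hind limb muscle, was sequenced in 24 samples from wild-type (WT) C57/BL6 mice, with 4 samples in each of 6 groups and a labelled time of 24 h throughout. Female and male controls were sedentary and were injected with saline at pH 7.2 ± 0.1 (Sed + pH 7.2). Sedentary pain groups (Sed + pH 5.0) had acid injections of pH 5.0 ± 0.1 and 6 minutes of electrically stimulated contraction, which directly preceded the second injection. Active pain groups (Ex + pH 5.0) went through the same pain model after 8 weeks with running wheels. All groups had injections of 20 µl, with 5 days between them. Controls had neither acid nor contraction, so acid and contraction cannot be told apart. Active and sedentary pain groups differ in running within the pain model. No running group without pain was analysed, so running alone cannot be read. Samples are named here by group and by the number 1 to 4 in their titles. The labels do not say that these are separate animals, so p-values measure only the spread between these samples. Ages were not given.

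Mitochondrial DNA is a small circle that is read from both strands into long precursors. Enzymes cut the tRNAs out of these precursors, which releases the rRNAs and messenger RNAs between them. The messenger RNAs encode core subunits of respiratory complexes I, III, IV and V, whose other subunits come from nuclear genes. Skeletal muscle, and oxidative fibres most of all, is rich in mitochondria, and copies of mitochondrial DNA inserted in the nuclear genome can share reads with the true transcripts.

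In female sedentary pain samples, 9 of the 13 protein-coding transcripts and 4 of the 5 tRNAs that could be tested fell below controls. This stands beside 33.5% of all 14511 genes tested that were called and 13.9% called lower. Neither rRNA passed the test with all samples fitted, but mt-Rnr2 did without sedentary pain 2, and both did in samples 3 and 4 alone. In female active pain samples mt-Co2, mt-Nd6, mt-Tl1 and mt-Tt were higher than in sedentary pain, beside 11.9% of genes called and 2.51% called higher, and no member passed the test against control. Leaving out 1 library took the first count, 13 members, down to 3 and the second, 4 members, to 0. In males no member passed edgeR's test in any comparison, although DESeq2 called mt-Atp8 and mt-Nd3 in sedentary pain and mt-Atp8 in active pain against control, and no difference between the sexes in a member's change passed it.

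Total counts per sample ran from 17612139 to 34039699. One count was therefore worth little, and the 95% Wilson interval of the share of all 37 genes was at most 0.0125 percentage points to either side, which covers counting error only. Muscle fibre markers were present in every group with none of the 12 at 0. Levels of genes and marker sums are given in counts per 1000000 (CPM) of the library size after scaling by trimmed mean of M-values (TMM), as in the tests, with factors from 0.883 to 1.29 by which each library total was multiplied. Shares of a library use plain total counts.

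Sequence bears on which of these levels can be read as mitochondrial. On chromosome 1, 7 annotated pseudogenes lie in one run of 4663 bases, chr1:24611535-24616197 on the minus strand of GRCm38, in the same order as the mitochondrial genes they copy, from mt-Co1 to mt-Nd4. Over the stretch compared, the copies of mt-Co2, mt-Atp6, mt-Co3, mt-Nd4l and mt-Nd4 had 100% identity with their originals. The start of mt-Nd3, the complex I subunit ND3, and of its copy Gm28438 are shown because 1 base separates them over 345 bases compared. The capital marks the substitution T3C, counted from 1 at the gene's 5′ end, and the stretches are chrM:9459-9490 on the plus strand and chr1:24613088-24613119 on the minus strand.
mt-Nd3: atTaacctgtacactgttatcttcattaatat
Gm28438: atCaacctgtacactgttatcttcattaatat
Within the copied stretch, a read that starts past that base cannot be placed by its letters.

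A second copy of mt-Co1, on chromosome 2, differs at more bases and is shown for contrast. Gm13340 matched mt-Co1, the catalytic subunit of complex IV, at 97.605% of 1545 bases, with 37 mismatches. A stretch of 60 bases with 4 of them (A462G, A468G, T501C and C519T, in capitals, counted from the first base of mt-Co1) is shown from chrM:5787-5846 on the plus strand and chr2:22589129-22589188 on the minus strand.
mt-Co1: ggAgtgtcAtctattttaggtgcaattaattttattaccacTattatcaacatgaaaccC
Gm13340: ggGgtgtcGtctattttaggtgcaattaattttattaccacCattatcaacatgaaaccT
The chromosome 1 run also ends inside mt-Nd4, another complex I subunit. Around that end, at chrM:11013-11072 on the plus strand, the capitals are bases that the copy Gm28439 holds too and the lower case is found in mt-Nd4 alone of the pair.
mt-Nd4: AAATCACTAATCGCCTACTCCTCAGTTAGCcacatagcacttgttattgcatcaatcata

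Neighbouring members share bases as well, and how the authors counted a read over both is not given in the sources used here. The last 53 bases of mt-Atp8, a complex V subunit, and the last 27 of mt-Nd4l, the complex I subunit ND4L, show this at chrM:7917-7969 and chrM:10147-10173, both on the plus strand. Capitals mark the 43 bases shared with mt-Atp6 and the 7 shared with mt-Nd4.
mt-Atp8: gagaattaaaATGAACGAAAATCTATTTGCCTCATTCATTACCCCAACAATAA
mt-Nd4l: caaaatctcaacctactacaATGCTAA

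By level per length the protein-coding members fell into a high and a low set. Over the 24 samples, mean levels were 18051 CPM per kilobase for mt-Co1, 15403 for mt-Nd1 and 14862 for mt-Cytb. They were 9815 for mt-Nd2, 6143 for mt-Nd4 and 4000 for mt-Nd5. The other 7 lay between 47.1 CPM per kilobase for mt-Nd4l and 212 for mt-Co2. Of stretches of 100 bases, the length of one read, between 97.6% and 99.9% also stood unchanged in an annotated nuclear transcript for mt-Co2, mt-Atp6, mt-Co3, mt-Nd3 and mt-Nd4l. The share was 60.8% for mt-Nd4, 30.8% for mt-Co1, 3.19% for mt-Nd2 and 0.0% for mt-Nd1, mt-Cytb, mt-Nd5, mt-Nd6 and mt-Atp8. mt-Nd6 (50.7 CPM per kilobase) was thus low with no such stretch. mt-Atp8 (86.2) was low too, but it starts in the gap between mt-Co2 and mt-Atp6. The copies of those 2 genes, at chr1:24614885-24615565 and chr1:24613974-24614651, also leave a gap between them. Genome sequence between annotated transcripts was not used here, so the 0.0% for mt-Atp8 does not show that it has no nuclear copy.

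For genes copied over nearly their whole length, the copy also held a sizeable part of the counts given to the pair. The 7 chromosome 1 copies together held only 0.00895% to 0.0516% of a library. The median over samples of the copy's part of the summed counts was 28.5% for mt-Co2 (11.2% to 41.9%), 35.7% for mt-Atp6 (9.81% to 67.1%) and 32.1% for mt-Co3 (up to 73.6%). It was 23.7% for mt-Nd3 (12.1% to 57.2%) and 40.5% for mt-Nd4l (2.00% to 80.6%). For mt-Co1 and mt-Nd4, which the chromosome 1 run copies only in part, it was 0.260% and 0.245%. These values do not show where reads of the copied parts were counted. The levels of mt-Co2, mt-Atp6, mt-Co3, mt-Nd3 and mt-Nd4l are therefore uncertain, and they together with mt-Atp8, a group formed after the values were seen, held only 0.269% to 1.0% of the protein-coding members' counts in a sample.

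**Figure D1:**
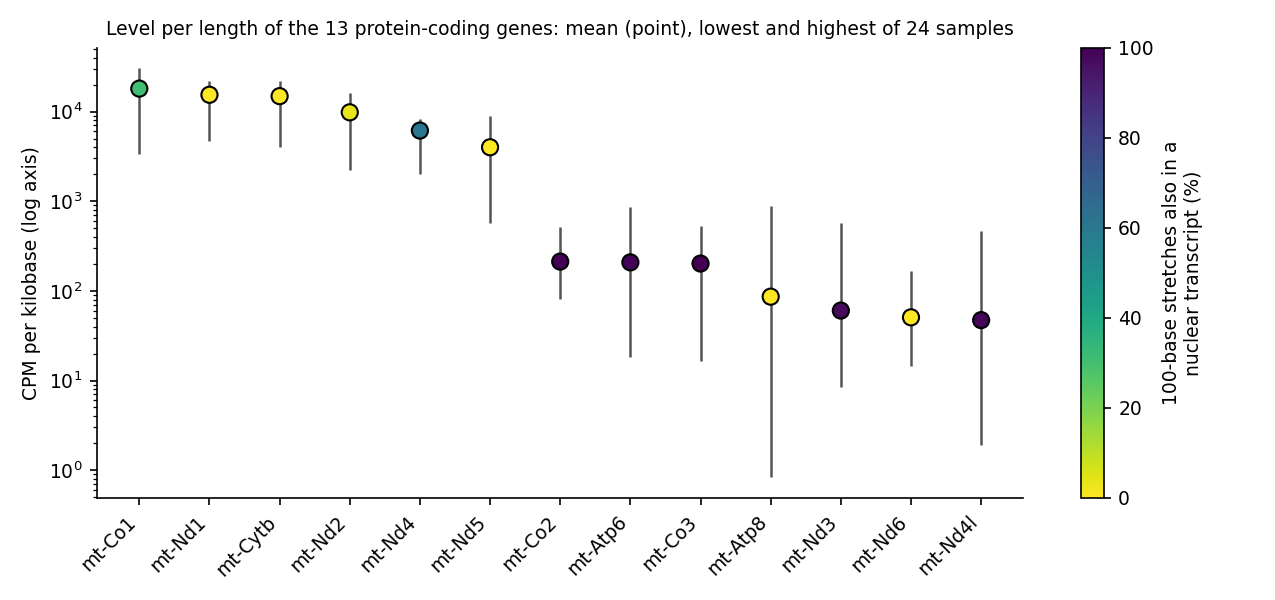
Mean level of the 13 protein-coding genes in CPM per kilobase over 24 samples on a log axis (points), with the lowest and highest sample as a bar and colour for the percentage of 100-base stretches also in an annotated nuclear transcript. mt-Co1 is highest at 18051 and mt-Nd4l lowest at 47.1, and the 5 genes above 97% all sit at or under 212.

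The protein-coding genes together held most mitochondrial counts. Their share of the library was 8.38%, 10.8%, 8.37% and 8.61% for female controls 1 to 4, 8.00%, 3.55%, 5.69% and 2.60% for female sedentary pain, and 6.47%, 11.2%, 6.60% and 9.85% for female active pain. In males it was 11.0%, 9.24%, 9.26% and 10.9% for controls, 4.27%, 11.2%, 10.2% and 10.2% for sedentary pain, and 7.98%, 5.67%, 9.09% and 12.4% for active pain. All 4 female sedentary pain samples lay below all 4 female controls, by a little in sample 1 and by most in sample 4, whereas in males sample 1 of sedentary pain and sample 2 of active pain stood low and the groups overlapped.

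The female sedentary pain mean was 0.549 of the control mean, and it was 0.603 among samples 1 and 2 and 0.488 among samples 3 and 4. These subsets differ in the library number of the deposited data, whose meaning is not stated. In males the sedentary pain mean was 0.888 of control, at 0.762 among samples 1 and 2 and 1.02 among samples 3 and 4. The male active pain mean was 0.869 of control, at 0.674 and 1.07 in the same subsets, so that neither male difference held within both.

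**Figure D2:**
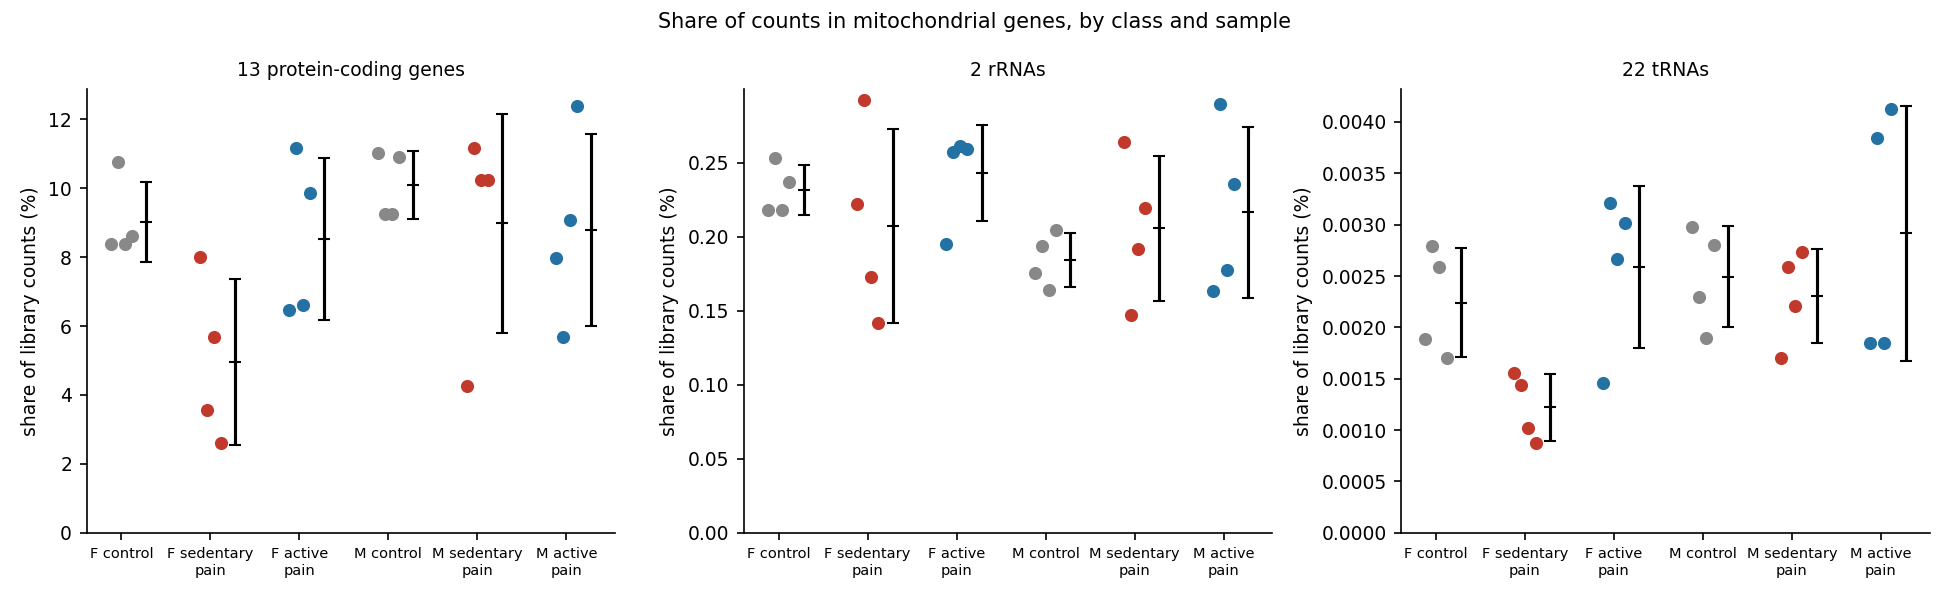
Share of library counts (%) in the protein-coding genes, rRNAs and tRNAs by group, with 1 point per sample and black bars for mean ± SD (n = 4). The female sedentary pain points run from 2.60% to 8.00% for the protein-coding genes, all below the female controls at 8.37% to 10.8%.

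The rRNA share of sedentary pain overlapped that of control in each sex. The 2 rRNAs of the mitochondrial ribosome held 0.218%, 0.253%, 0.218% and 0.237% of counts in female controls, 0.222%, 0.292%, 0.173% and 0.142% for female sedentary pain, and 0.195%, 0.257%, 0.261% and 0.259% for female active pain. In males the values were 0.175%, 0.194%, 0.164% and 0.205% for controls, 0.264%, 0.147%, 0.191% and 0.220% for sedentary pain, and 0.163%, 0.290%, 0.178% and 0.235% for active pain. Every female control was above every male control, and female sedentary pain sample 2 had more rRNA than any female control although its protein-coding share was 3.55%. Nuclear rRNA had only 1 to 15 counts a library. How library making treated rRNA was not tested, so these shares need not reflect rRNA levels in the tissue. The 22 tRNAs together held 0.000875% to 0.00412% of a library.

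Tests used edgeR's quasi-likelihood method on all genes with enough counts, one fit for each sex, with p-values adjusted by Benjamini-Hochberg over all genes tested and a threshold of 0.05. The filter on low counts kept 20 members: the 13 protein-coding genes, both rRNAs, and the tRNAs mt-Ti, mt-Tl1, mt-Tm, mt-Tt and mt-Tw. The other 17 members, all tRNAs, were too low to test. In female sedentary pain against control, 13 of the 20 were lower and 0 higher, beside 33.5% of 14511 genes called either way and 13.9% called lower. CPM values did not overlap between these groups for 9 of the 20, beside 25.7% of all genes tested, and without the TMM factor also for 9, beside 25.3%, with mt-Nd1 in place of mt-Cytb. The median log2 change was -1.24 over the protein-coding members, -1.46 over the 5 tRNAs and -0.30 over the rRNAs, beside -0.02 over all genes tested.

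The count of members called rested on single libraries. It was 3 without female control 2 or without sedentary pain 4, 5 without sedentary pain 2, 7 without control 1, control 4 or sedentary pain 3, and 16 without sedentary pain 1. All genes called numbered 4867, and 2864, 2486, 3107 and 3161 without control 2, sedentary pain 4, control 1 and control 4. Of 12 fits with one female sample left out, 8 lost the call of mt-Cytb and 7 that of mt-Nd2, mt-Nd6 or mt-Tt. For mt-Nd1 and mt-Nd3 it was lost in 6, for mt-Co1 in 5, for mt-Nd5 and mt-Tm in 3 and for mt-Tw in 2. mt-Co2, mt-Nd4l and mt-Tl1 lost it in 0.

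Immune cell markers also differed between these groups. In female sedentary pain against control, 14 of 15 macrophage and monocyte markers and 5 of 5 neutrophil markers were higher, 5 of 6 adipocyte markers and 2 of 5 endothelial markers were lower, and 1 of 12 muscle fibre markers was lower. Summed macrophage markers ran from 124 to 276 CPM for female controls and were 623, 1072, 4855 and 7248 CPM for sedentary pain samples 1 to 4, with no marker at 0. The protein-coding shares of these 4 samples were 8.00%, 3.55%, 5.69% and 2.60%, so sample 2 had a lower share than sample 3 at a lower sum. Summed neutrophil markers were 2.51 to 7.17 CPM for controls and 14.7 to 234 for sedentary pain, and summed adipocyte markers 166 to 3753 and 66.1 to 460 CPM. Summed muscle fibre markers were 173400 to 260530 CPM for controls and 112700 to 225680 for sedentary pain. With sedentary pain 3 and 4 left out, a choice made after the data were seen, the protein-coding median was -0.79, 0 members were called by edgeR's test and 1440 genes were. The part of these markers in the members' fall was not tested, and in bulk tissue fewer cells of a type and less RNA per cell cannot be told apart.

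Among the complex I subunits, mt-Nd1 had the highest level in CPM. It was measured at 16074, 17175, 13401 and 14521 CPM for female controls, 13541, 7327, 8099 and 4474 for sedentary pain, and 13130, 18258, 12000 and 16061 for active pain. Sedentary pain 1 reached just above the lowest control, while the other 3 samples lay far below. This overlap depends on the scaling, since per plain library total sedentary pain 1 was at 14377 and the lowest control at 14470. mt-Nd1 fell by 0.84 ± 0.28 (SE) on the log2 scale from control to sedentary pain (adjusted p = 0.0364).

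Of the 5 other complex I subunits read from the same strand, mt-Nd5 fell the most among the abundant ones. It stood at 7103, 9681, 5109 and 6367 CPM for female controls and at 4426, 2127, 2622 and 1055 CPM for sedentary pain, with no overlap, and at 3610, 9392, 3265 and 6039 CPM for active pain. The fall was 2.70-fold, or -1.44 ± 0.42 on the log2 scale (adjusted p = 0.0252). mt-Nd2 (-1.09 ± 0.37, adjusted p = 0.0393) and mt-Nd3 (-1.07 ± 0.35, adjusted p = 0.0374) also fell, and mt-Nd4 missed the threshold of edgeR's test at -0.75 ± 0.27 (adjusted p = 0.0515). DESeq2 called mt-Nd4 (adjusted p = 0.0218) and 13 members in all, and edgeR's test called mt-Nd4 without sedentary pain 1 (-1.04, adjusted p = 0.00454).

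mt-Nd4l had the largest fitted change of any member, and it came mostly from 1 control. Its levels were 139, 8.82, 2.81 and 3.54 CPM for female controls, 1.81, 0.732, 1.62 and 0.572 CPM for sedentary pain and 1.72, 8.02, 3.13 and 4.71 CPM for active pain. Control 1 was far above the other 11 female samples, and sedentary pain did not overlap control. The fitted change in sedentary pain was -4.95 ± 1.24 (adjusted p = 0.0135), and -2.04 without control 1 (adjusted p = 0.0311). In samples 3 and 4 alone it was -1.48 (adjusted p = 0.0759). mt-Nd4l was not among the members that DESeq2 called, and it lost its call with the replicate block.

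mt-Nd6, a complex I subunit, is the only protein-coding member read from the minus strand (chrM:13552-14070), where it shares 14 bases with the end of mt-Nd5. It was at 27.1, 24.3, 57.7 and 19.0 CPM for female controls, 15.8, 11.7, 7.51 and 13.4 for sedentary pain, and 22.4, 86.4, 24.3 and 27.3 for active pain. All sedentary pain samples were below both other female groups. The change was -1.38 ± 0.47 against control (adjusted p = 0.0428) and 1.69 ± 0.48 from sedentary to active pain (adjusted p = 0.0422), a 3.22-fold rise and the largest among members called in that comparison. Without active pain 2 it was 0.99 and was not called.

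Relative to the messengers of the other strand, mt-Nd6 overlapped between the female groups. In counts per 10000 counts of the 12 other protein-coding members it stood at 2.91, 2.15, 7.46 and 2.25 for female controls, 2.11, 3.32, 1.70 and 6.53 for sedentary pain, and 3.24, 7.54, 3.73 and 2.81 for active pain. The groups overlapped, with sedentary pain 1 and 3 below every control. The mean log2 ratio in sedentary pain minus that in control was -0.11, with an exact two-sided permutation p of 0.771 over 70 arrangements, where 0.0286 is the smallest possible. Adjusted over 12 such tests, the p-values of all 6 mt-Nd6 ratios were 1, but 1 fully separated ratio among the 12 could reach no less than 0.343 after this adjustment, so these values do not show that the ratios were alike.

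mt-Cytb, cytochrome b, is the single mitochondrial subunit of complex III. Its levels were 18531, 22787, 16937 and 17498 CPM for female controls, 16810, 8611, 9118 and 4561 for sedentary pain and 15193, 22555, 14750 and 20675 for active pain. Sedentary pain 1 lay just under the lowest control and the other 3 well under it. Per plain library total sedentary pain 1, at 17849, lay within the controls, at 16682 to 21691. The fall in sedentary pain was -0.93 ± 0.31 (adjusted p = 0.0415), a call lost in 8 of 12 fits with one female sample left out.

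Complex IV takes 3 subunits from mitochondrial DNA. mt-Co1 was at 29520, 39094, 24748 and 27144 CPM for female controls, 22247, 8594, 13990 and 5223 for sedentary pain and 20672, 39147, 19829 and 32532 for active pain. No sedentary pain sample reached the controls, and active pain covered the whole control range. mt-Co1 fell 2.36-fold in sedentary pain (-1.24 ± 0.39, adjusted p = 0.0312), and the difference of 1.14 ± 0.39 from sedentary to active pain missed the threshold (adjusted p = 0.0708).

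mt-Co2, the copper-bearing complex IV subunit that accepts electrons from cytochrome c, was called in both female comparisons with sedentary pain. It stood at 154, 116, 173 and 125 CPM for controls, 97.6, 62.1, 56.5 and 55.3 for sedentary pain and 110, 120, 179 and 210 for active pain. Sedentary pain overlapped neither other group, although without the TMM factor it overlapped active pain. The change was -1.04 ± 0.24 against control (adjusted p = 0.0103), and each of 12 fits with one female sample left out called it, at -1.23 to -0.92. From sedentary to active pain it rose by 1.17 ± 0.24 (adjusted p = 0.0328), a call lost in 5 of 12 fits with one female sample left out. Counts of mt-Co2 and its copy Gm28661 cannot be told apart with certainty, and Gm28661 itself was at -0.58 ± 0.42 for sedentary pain against control (adjusted p = 0.289). The third complex IV subunit, mt-Co3, was at -1.49 ± 0.79 and did not pass (adjusted p = 0.152). That value rested on single libraries, since it was -2.88 without sedentary pain 1 (adjusted p = 0.00588), which edgeR's test called, and -0.88 without control 1.

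Complex V, the ATP synthase, has mt-Atp6 and mt-Atp8. mt-Atp6 was at 135, 185, 34.8 and 37.9 CPM for female controls, 105, 15.5, 27.4 and 12.4 for sedentary pain and 51.4, 252, 58.9 and 110 for active pain. In males it was at 582, 68.1, 268 and 341 CPM for controls, 29.1, 268, 231 and 193 for sedentary pain and 28.9, 45.8, 73.6 and 246 for active pain. Groups overlapped in each sex, and the spread within a group was wide. The change in female sedentary pain was -1.26 ± 0.77 (adjusted p = 0.209), and mt-Atp8 gave -2.25 ± 1.24 (adjusted p = 0.164). Without sedentary pain 1 they were -2.34 for mt-Atp6, which was then called (adjusted p = 0.0223), and -3.67 for mt-Atp8 (adjusted p = 0.0523).

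The rRNAs, mt-Rnr1 of the small and mt-Rnr2 of the large ribosomal subunit, passed edgeR's test in no comparison with all samples fitted. mt-Rnr1 was at 1030, 1139, 880 and 971 CPM for female controls, 933, 1323, 589 and 496 for sedentary pain, and 938, 1111, 1144 and 1124 for active pain. mt-Rnr2 followed at 1392, 1518, 1137 and 1360 CPM, then 1160, 1576, 752 and 624, then 1145, 1525, 1432 and 1437. Sedentary pain held both the highest and the lowest female samples of each rRNA. The changes against control were -0.24 ± 0.25 (adjusted p = 0.468) for mt-Rnr1 and -0.36 ± 0.24 (adjusted p = 0.248) for mt-Rnr2. Without sedentary pain 3 and 4 they were 0.19 for mt-Rnr1 and 0.04 for mt-Rnr2. Without sedentary pain 2 they were -0.55 (adjusted p = 0.0583) and -0.64 (adjusted p = 0.037), of which the second was called, and in samples 3 and 4 alone both were called, at -0.72 (adjusted p = 0.0438) and -0.81 (adjusted p = 0.0354).

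The ratio of the rRNAs was tight within groups. Counts of mt-Rnr2 per count of mt-Rnr1 were 1.35, 1.33, 1.29 and 1.40 for female controls, 1.24, 1.19, 1.28 and 1.26 for sedentary pain, and 1.22, 1.37, 1.25 and 1.28 for active pain. In males they ran from 1.37 to 1.50 for controls, 1.37 to 1.49 for sedentary pain and 1.29 to 1.58 for active pain. All 4 female sedentary pain samples were below every control, by -0.11 on the log2 scale with the smallest exact permutation p that 4 against 4 allows, 0.0286. Adjusted over the 12 ratio tests it was 0.343, the smallest value that 1 fully separated ratio can reach there, so the design could not call this difference.

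As a part of all mitochondrial counts, a measure added after the values were seen, the rRNAs made up 2.54%, 2.30%, 2.54% and 2.68% for female controls, 2.70%, 7.60%, 2.95% and 5.17% for sedentary pain and 2.92%, 2.25%, 3.80% and 2.56% for active pain. In males the values were 1.57%, 2.05%, 1.74% and 1.84% for controls, 5.83%, 1.30%, 1.84% and 2.10% for sedentary pain and 2.00%, 4.86%, 1.92% and 1.86% for active pain. The 4 samples above 4% were female sedentary pain 2 and 4, male sedentary pain 1 and male active pain 2. Those 4 had protein-coding shares of 3.55%, 2.60%, 4.27% and 5.67%, and summed macrophage markers of 1072, 7248, 1043 and 678 CPM. The last 3 of these sums were the highest of their groups, and all 16 pain samples were above every control of their sex. Female sedentary pain 3, at 4855 CPM, had an rRNA part of 2.95%. Rn7sk, a nuclear RNA without a poly(A) tail, had 27, 28, 25 and 39 counts in those 4 libraries, 27 in male active pain 1 and 3 to 17 in the other 19. The part of these markers and of library differences in the rRNA part was not tested.

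Among the messenger RNAs, the abundance of mt-Nd5 relative to mt-Nd4 varied widely. Counts of mt-Nd5 per count of mt-Nd4, likewise chosen after values were seen and given with no test, were 0.763, 0.905, 0.616 and 0.754 for female controls, 0.512, 0.417, 0.531 and 0.376 for sedentary pain, and 0.435, 0.879, 0.422 and 0.575 for active pain. In males they were 1.37, 1.23, 0.969 and 1.26 for controls, 0.394, 1.11, 1.09 and 1.17 for sedentary pain and 0.565, 0.428, 0.976 and 1.42 for active pain. The 2 genes lie in sequence on the same strand with 3 tRNAs between them. The 4 libraries with the highest rRNA part had ratios of 0.376 to 0.428, and female active pain 3 and 1, at 0.422 and 0.435, lay within or beside that range. Every male control was above every female control in this ratio.

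**Figure D3:**
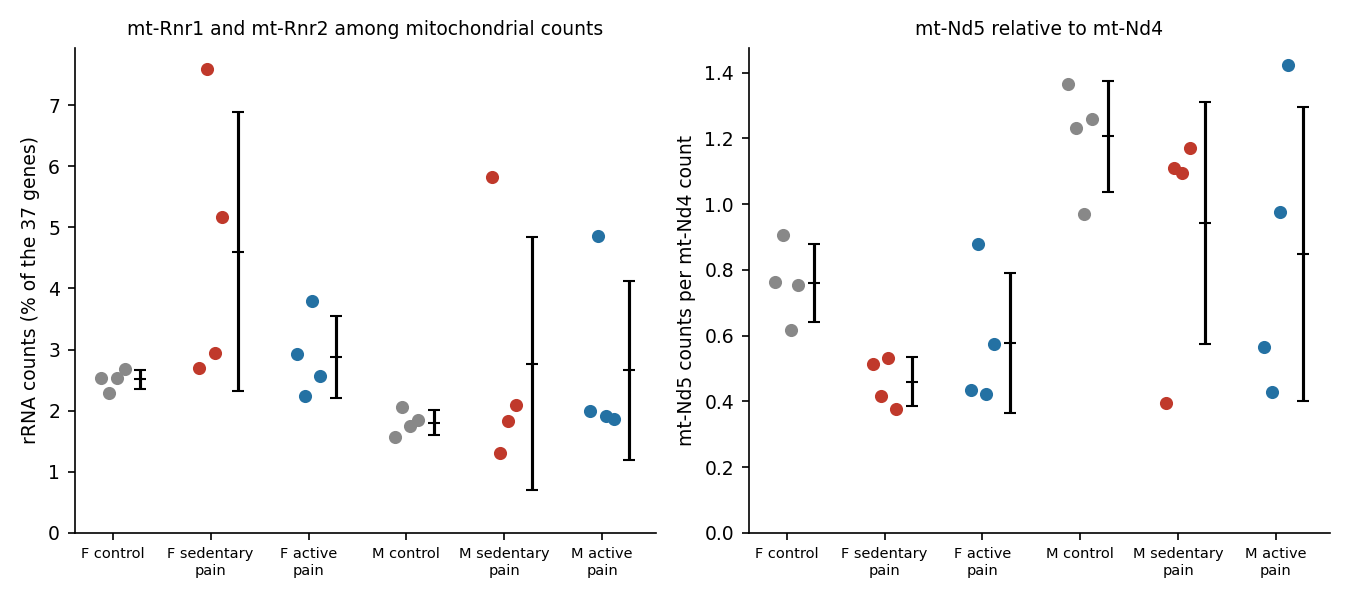
Left, mt-Rnr1 and mt-Rnr2 counts as a percentage of counts in the 37 genes, and right, mt-Nd5 counts per mt-Nd4 count, with 1 point per sample and black bars for mean ± SD (n = 4). The 4 samples above 4% on the left (4.86% to 7.60%) have ratios of 0.376 to 0.428 on the right. Female active pain 3 (0.422) lies in that range as well and female active pain 1 (0.435) just above it.

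The tRNAs were read only in trace amounts. At 100 bases a read is longer than any of them, and the extract protocol names neither a poly(A) step nor a step that keeps short RNA. A read aligned along its whole length thus also covers bases beside the tRNA gene. Changes in these counts therefore need not be changes of the cut tRNAs. Counts per sample ran from 92 to 477 for mt-Ti, 19 to 421 for mt-Tm, 40 to 256 for mt-Tw, 9 to 154 for mt-Tl1 and 3 to 43 for mt-Tt. mt-Tf, mt-Tv, mt-Td and mt-Tk had 0 counts in all 24 samples, for which a limit of 3 counts is 0.0881 to 0.170 CPM per library, here without the TMM factor. mt-Tg had 2 to 7 counts in every sample. The remaining 12 were at 0 in at least 1 sample and reached at most 34 counts, in mt-Tq.

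mt-Ti and mt-Tm carry isoleucine and methionine, and their sequences are shown because mt-Tm was called in female sedentary pain and mt-Ti, the other plus-strand tRNA nearby, was not. mt-Ti lies at chrM:3706-3774 and shares its first 2 bases with the end of mt-Nd1 and its last 3 with mt-Tq on the other strand, both in capitals, and mt-Tm lies at chrM:3845-3913.
mt-Ti: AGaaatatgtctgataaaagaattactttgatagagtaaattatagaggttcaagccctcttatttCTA
mt-Tm: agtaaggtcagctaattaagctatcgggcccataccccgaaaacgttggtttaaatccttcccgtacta
mt-Tm was at 5.60, 10.2, 5.77 and 4.72 CPM for female controls, 2.52, 1.07, 2.54 and 0.808 for sedentary pain, and 2.10, 9.88, 2.71 and 7.40 for active pain. mt-Ti was at 6.65, 7.54, 6.73 and 4.57 CPM for controls, 6.59, 8.56, 2.82 and 3.43 for sedentary pain, and 8.30, 9.15, 16.3 and 11.4 for active pain. Sedentary pain was wholly below control for mt-Tm and overlapped it for mt-Ti, whose active pain samples were all above control. mt-Tm fell in sedentary pain (-1.87 ± 0.52, adjusted p = 0.0205). mt-Ti was at -0.23 ± 0.34 there (adjusted p = 0.602) and at 0.83 ± 0.34 for active pain against control (adjusted p = 0.642), and the difference between the 2 tRNAs was not tested.

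The leucine tRNA mt-Tl1, which follows mt-Rnr2 and precedes mt-Nd1, had the smallest adjusted p among members. Its levels were 3.15, 4.05, 2.77 and 1.88 CPM for female controls, 1.47, 0.507, 0.858 and 0.438 for sedentary pain and 1.30, 3.44, 2.40 and 3.67 for active pain. It fell by 1.80 ± 0.42 in sedentary pain (adjusted p = 0.00955), with no overlap, and rose by 1.68 ± 0.42 from sedentary to active pain (adjusted p = 0.033), where 1 active sample overlapped. The tryptophan tRNA mt-Tw (-1.21 ± 0.34, adjusted p = 0.021) and the threonine tRNA mt-Tt (-1.46 ± 0.48, adjusted p = 0.0373) also fell in sedentary pain. Over the 24 samples mt-Tt had 3 to 43 counts a sample.

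From female sedentary to active pain, 4 of the 20 members rose and 0 fell, beside 11.9% of 14511 genes called either way and 2.51% called higher. The 4 were mt-Co2, mt-Nd6, mt-Tl1 and mt-Tt (1.66 ± 0.48, adjusted p = 0.0449). CPM did not overlap for mt-Nd6, mt-Co2 and mt-Tt, 3 of the 20, beside 11.7% of all genes, and without the TMM factor for mt-Nd6 alone, beside 14.1%. The median was 1.14 over the protein-coding members, all 13 positive, 1.62 over the tRNAs and 0.38 over the rRNAs, beside 0.01 over all genes. Macrophage and monocyte markers were lower for 12 of 15, at summed levels of 310 to 679 CPM for active pain, and their part in the members' rise was not tested.

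This comparison also rested on single libraries. All genes called numbered 1730, and 0 without sedentary pain 4 or active pain 1, 2 or 4, 3 without sedentary pain 3, and 4316 without sedentary pain 1. Members called numbered 0 in the first 5 of these fits and 17 in the last, and 2 without control 1, 2 or 4. With sedentary pain 3 and 4 left out together, 0 genes and 0 members were called, and the protein-coding median was 0.85. DESeq2 called 3010 genes and 15 members. Over all alternatives the call was lost in 9 of 27 for mt-Co2 and for mt-Tl1, 17 of 27 for mt-Nd6 and 18 of 26 for mt-Tt.

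Female active pain and control gave no call: edgeR's test called 0 of the 20 members, beside 0.0% of 14511 genes, with 2 members (mt-Ti and mt-Nd4l) and 1020 genes at an unadjusted p under 0.05, and DESeq2 called 0 members and 125 genes. mt-Ti was the 1 member of 20 without overlap, beside 5.62% of genes. The medians were -0.04 over the protein-coding members, 0.07 over the rRNAs and -0.12 over the tRNAs. Both comparisons with control use the same 4 control samples.

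**Figure D4:**
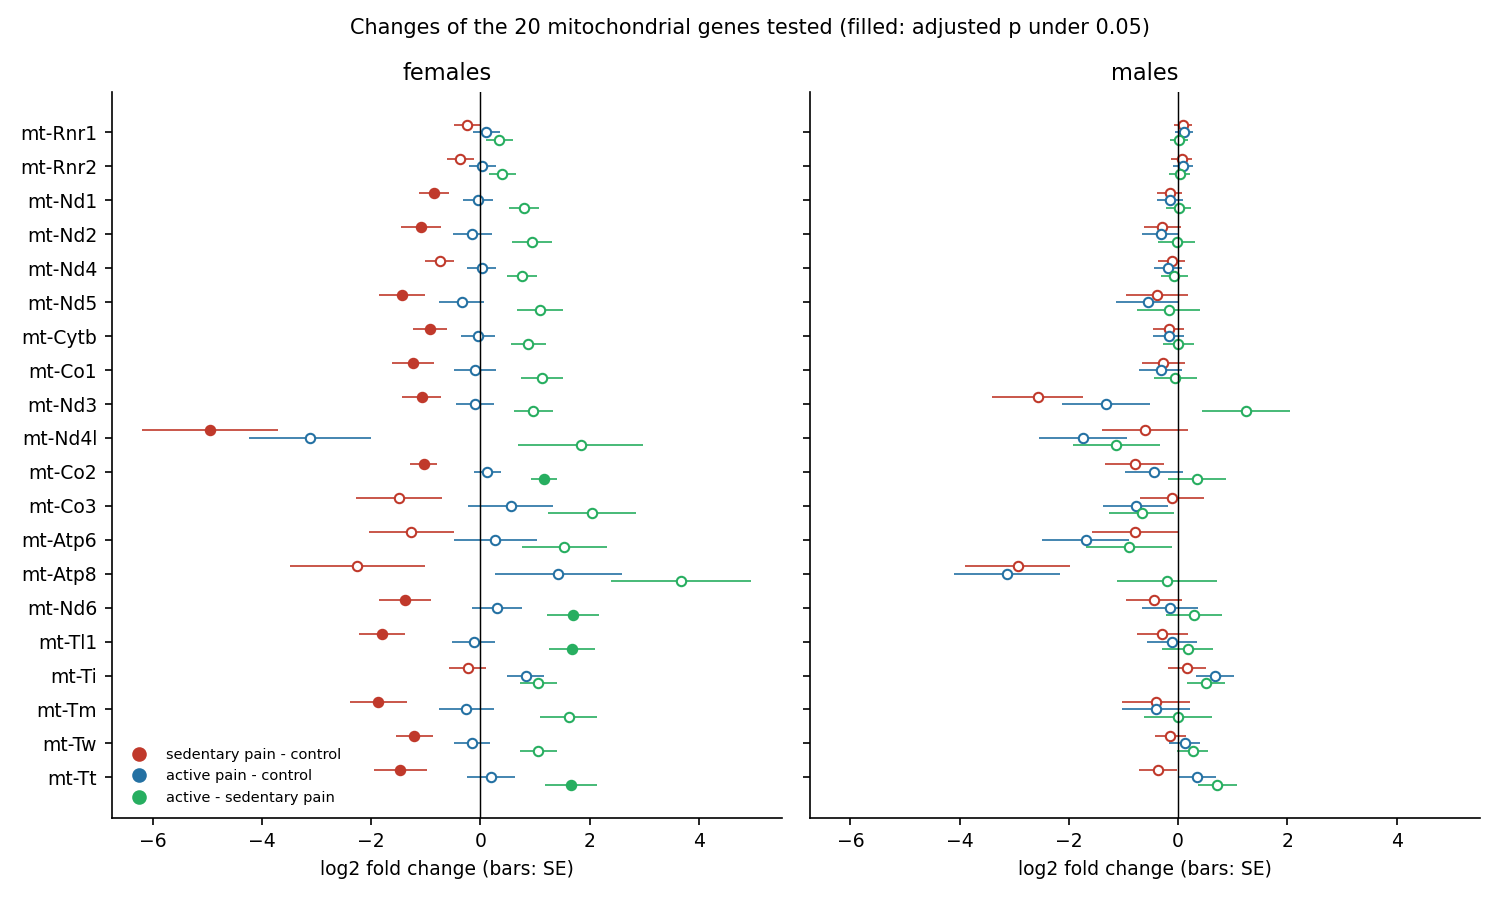
Log2 fold change of the 20 members tested, with bars for SE and filled points for an adjusted p under 0.05 (edgeR), in females and males. In females 13 sedentary pain points against control and 4 points of active against sedentary pain are filled, and in males none is.

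In males 1 library of each pain group was lowest for the abundant messengers. mt-Co1 stood at 42124, 33306, 31334 and 40364 CPM for controls, 10488, 39164, 36588 and 35066 for sedentary pain and 26962, 13499, 30599 and 47083 for active pain. Sedentary pain 1 and active pain 2 were the lowest, active pain 1 and 3 lay less far below the control range, and the others lay in or above it. The change was -0.27 ± 0.39 for sedentary pain (adjusted p = 0.719) and -0.32 ± 0.39 for active pain (adjusted p = 0.675).

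The same 2 libraries were lowest for mt-Nd1 and mt-Cytb. mt-Nd1 was at 19264, 16551, 16188 and 19435 CPM for controls, 8752, 19989, 17822 and 17080 for sedentary pain and 15625, 11068, 16706 and 21230 for active pain. mt-Cytb was at 22166, 18093, 18056 and 21196 CPM, then 8873, 21457, 20286 and 19265, then 17383, 9805, 18257 and 25190. For both genes the groups overlapped. Active pain 1 was low as well for 2 other complex I messengers, with mt-Nd5 at 5140 CPM against 8828 to 14356 for controls and mt-Nd2 at 9428 CPM against 11892 to 15077. mt-Nd6 ran from 14.6 to 51.4 CPM for controls, 10.9 to 28.2 for sedentary pain and 7.57 to 40.7 for active pain. The rRNAs of these 2 low libraries were not low, at 1051 and 986 CPM for mt-Rnr1 against 720 to 899 for controls, and at 1444 and 1417 CPM for mt-Rnr2 against 983 to 1346. Male active pain 2 also had the highest mt-Ti of all samples, 19.0 CPM.

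Summed macrophage markers were highest of their groups in the same 2 male samples, at 1043 CPM for sedentary pain 1 and 678 CPM for active pain 2, against 86.4 to 183 CPM for controls. None of the 15 markers was at 0 in a group and none was called in males. Their part in these levels was not tested.

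No male comparison called a member by edgeR's test. In sedentary pain against control 0 of 20 were called, beside 0.0% of 14404 genes, with 2 members (mt-Atp8 and mt-Nd3) and 1273 genes at an unadjusted p under 0.05, and DESeq2 called these 2 members and 270 genes. mt-Atp8 was at 180, 25.8, 11.5 and 15.3 CPM for controls and 0.986, 10.8, 9.60 and 8.66 for sedentary pain, the 1 member of 20 without overlap, beside 7.41% of genes. mt-Nd3 was at 24.4, 17.5, 9.12 and 199 CPM for controls and 5.88, 11.1, 9.68 and 14.7 for sedentary pain. One control, 1 for mt-Atp8 and 4 for mt-Nd3, stood far above the rest. The fitted changes were -2.93 ± 0.96 (adjusted p = 0.357) and -2.57 ± 0.84 (adjusted p = 0.353). Without that control they were -1.21 for mt-Atp8 and -0.69 for mt-Nd3.

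In male active pain against control 0 of 20 members were called, beside 0.0% of 14404 genes, with mt-Atp8 and 1045 genes at an unadjusted p under 0.05. DESeq2 called mt-Atp8 and 127 genes. None of the 20 was without overlap, beside 10.1% of genes. Between male active and sedentary pain edgeR called 0 of 20, beside 0.0% of genes, with 0 members and 121 genes at an unadjusted p under 0.05, DESeq2 called none of either, and 0 members were without overlap, beside 0.701% of genes. The protein-coding medians were -0.38, -0.45 and -0.05 in the order of these 3 comparisons, and all 13 members were negative in both comparisons with the shared controls. Without sedentary pain 1 the first median was -0.06 and 5 of the 13 were positive, and without active pain 2 the second was -0.16 and 3 were positive. With 1 surrogate variable in the fit the first and second medians turned to 0.18 and 0.08.

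Whether a change differed between the sexes was tested as the male minus the female change over all 24 samples. For sedentary pain against control 0 of 20 members passed, beside 0.0% of 15103 genes, with 3 members (mt-Nd4l, mt-Tl1 and mt-Tw) and 1446 genes at an unadjusted p under 0.05. The difference was 0.94 ± 0.57 for mt-Co1 (adjusted p = 0.633), 0.72 ± 0.43 for mt-Cytb (adjusted p = 0.63) and 4.32 ± 1.46 for mt-Nd4l (adjusted p = 0.432), or 1.40 for mt-Nd4l without female control 1. For active pain against control the test called 0 of 20, beside 0.0% of genes, with 1 member (mt-Atp8) and 307 genes at an unadjusted p under 0.05. For active against sedentary pain it called 0 of 20, beside 0.0% of genes, with 5 members (mt-Atp8, mt-Co3, mt-Nd1, mt-Nd4 and mt-Tl1) and 2224 genes at an unadjusted p under 0.05. mt-Co1 was at -1.16 ± 0.57 there (adjusted p = 0.347). DESeq2 called 15, 3 and 133 genes in the order given and no member. The fall in females is thus not shown to differ from the male change.

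In that last comparison the count changed when either of 2 libraries was left out. Without male sedentary pain 1, 2174 genes were called and 1 member, mt-Co3 (-3.04, adjusted p = 0.044), and without female sedentary pain 1, 622 genes and again mt-Co3 (-4.07, adjusted p = 0.0302). For sedentary pain against control, 5 genes were called without female control 1 and 18 without female sedentary pain 1, and for active pain against control 1 gene without female control 1.

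Nuclear genes that serve these transcripts were read from the same fit. Their counts in female sedentary pain against control stand beside 33.5% of all genes called and 13.9% called lower, and no list was compared with the members by a test. In that comparison 3 of 17 genes of mitochondrial transcription and replication were lower and 1 higher, with a median of -0.24. Of the 3 of highest level, Tfb2m, a transcription factor of the mitochondrial polymerase, fell by 0.48 ± 0.15 (adjusted p = 0.0288), while Tfam, which packages and activates mitochondrial DNA, was at -0.35 ± 0.13 (adjusted p = 0.0626) and the helicase Twnk at -0.25 (adjusted p = 0.474). Of 28 genes of mitochondrial RNA processing and stability, 3 were lower and 2 higher, with a median of -0.20. Grsf1, an RNA-binding protein of mitochondrial RNA granules, fell by 0.60 ± 0.19 (adjusted p = 0.0361), and Lrpprc, which stabilises mitochondrial messengers, was at -0.37 (adjusted p = 0.0709).

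Of 15 regulators of mitochondrial biogenesis, 4 were lower, with a median of -0.62, and the kinase subunit Prkaa2 was at -0.78 (adjusted p = 0.0615). Nuclear-encoded respiratory chain subunits stood near the middle of all genes: 7 of 79 were lower and 0 higher, with a median of -0.02, and the ATP synthase subunit Atp5b fell by 0.59 (adjusted p = 0.0362). Mitochondrial ribosome proteins had 1 of 77 lower and a median of 0.11. The 7 chromosome 1 copies and 2 other listed nuclear copies, which share reads with members, had 3 of 9 lower and a median of -0.97.

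From female sedentary to active pain, beside 2.51% of all genes called higher, 2 of 17 genes of transcription and replication, 3 of 15 regulators, 4 of 79 respiratory chain subunits and 2 of 9 nuclear copies were higher and none of these was lower. None of 28 processing genes and none of 77 ribosome proteins was called. In the 4 other comparisons within a sex none of these lists had a call by edgeR's test. Of 11 RNAs known to lack a poly(A) tail, 1 passed the filter, Rn7sk, a nuclear regulator of transcription, at 3 to 39 counts a sample, with 25 or more in the 4 libraries of highest rRNA part and in male active pain 1.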

How the data were processed

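RNA of 24 muscle samples was sequenced by the authors from Illumina TruSeq stranded libraries as paired reads of 100 bases, per the labels' protocols. The authors deposited raw counts of reads for each sample and Ensembl gene, with no scaling found in the values. The submitters' processing notes name HISAT2 2.1.0, Salmon 0.9.1, featureCounts, DESeq2 1.24.0 and the builds mm10 and GRCm38.p6, without roles. Annotation version, strand setting and the handling of reads that match several genes are not given in the sources used here. Symbols were found for 54409 of 54532 identifiers in the GENCODE annotation of GRCm38, which also gave positions and transcript sequences. Copies were sought in annotated transcripts with BLAST 2.17.0 (at least 90% identity over 100 bases).

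Groups came from the labels. Counts were scaled by trimmed mean of M-values (TMM), filtered with filterByExpr (minimum count 10) and tested, two-sided, with edgeR 4.0.16 (robust quasi-likelihood) in R 4.3.3. The 12 samples of a sex shared 1 fit, and sex differences used all 24. CPM values carry the TMM factor (over 24 samples), and shares, ratios of counts and the limit of 3 counts do not. Overlap was also read without the factor, a choice made after the data were seen. Ratios were compared by exact permutation in SciPy 1.17.1 (Python 3.11.15, NumPy 2.4.6, pandas 2.3.3), and figures drawn with matplotlib 3.10.9. The code was tested on simulated data. Total counts were 17612139 to 34039699 per sample.

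Every member could be named. Sample values were given for class sums, both rRNAs, the member of highest level in each complex, mt-Nd6, and the called members of largest change, and up to 3 genes of highest level from other lists. The other values by sample were added after values were seen. Members and lists were chosen with earlier results of these data known. Alternatives were other scalings (relative log expression, total counts, TMM without the members), DESeq2 1.42.0, no filter, a mean of at least 50 counts, the replicate block, the library number (20 or lower, 25 or higher) as a term or as subsets, other sets of samples in the fit, 1 surrogate variable (sva 3.50.0) and each sample left out. Copy counts added to members, and 2 female libraries left out together, were added after the data were seen. Lymphocyte, fibroblast, erythroid, satellite cell and Schwann cell markers were also read: in female sedentary pain against control 3 of 3 lymphocyte markers tested and 1 of 4 fibroblast markers were higher, and none of 5, 3 and 3 in the others was called.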

Additional observations from a re-analysis of the deposited data

Results flagged for a closer look

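In groups of 4, a sample was marked when its gap to the nearest other sample exceeded, as a part of the group's range, the 95% critical value of Dixon's test. Of 144 groups tested (class shares and members), 20 were marked, where chance marks about 1 in 20, and members of 1 library are not independent. None of these is weighed.

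Male sedentary pain 1 was the lowest of its group in 7 of them. Its share of all 37 genes was 4.534% against 10.43% to 11.31% in the other 3, and its protein-coding share 4.268% against 10.24% to 11.16%. It had mt-Co1 at 10490 CPM (others 35070 to 39160), mt-Nd2 at 4369 CPM (12380 to 14020) and mt-Nd5 at 2163 CPM (10920 to 11530). It also had mt-Co3 at 27.57 CPM (223.4 to 259.1) and mt-Tm at 1.144 CPM (9.029 to 10.33).

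Female sedentary pain 1 was the highest of its group for mt-Co2 at 97.62 CPM (55.32 to 62.06), mt-Atp6 at 104.7 CPM (12.39 to 27.36) and mt-Co3 at 160.3 CPM (13.03 to 27.36). Female control 2 was highest in the share of all 37 genes, 11.02% against 8.593% to 8.851%, and of the protein-coding genes, 10.76% against 8.373% to 8.612%. Female control 1 was highest for mt-Nd4l at 139.3 CPM (2.808 to 8.818).

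Female active pain 1 was lowest in the rRNA share at 0.1948% (0.257% to 0.261%) and in mt-Rnr1 at 938 CPM (1111 to 1144). Female active pain 2 was highest for mt-Atp8 at 80.05 CPM (1.982 to 7.673) and mt-Nd6 at 86.39 CPM (22.42 to 27.33). Male control 1 was highest for mt-Atp8 at 180.5 CPM (11.5 to 25.79) and male control 4 for mt-Nd3 at 198.8 CPM (9.123 to 24.45). Male active pain 4 was highest for mt-Tl1 at 6.364 CPM (1.695 to 2.072).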

How the results depend on the processing

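No value of the members, ratios or counts that passed a test changed direction under an alternative. The numbers of calls did move, and the cause was not tested except where fewer samples were fitted.

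In female sedentary pain against control (4867 genes, 13 members) the counts were 238 genes and 0 members in replicates 1 and 2, 2847 and 7 with only the groups compared, and 1440 and 0 with 2 libraries left out. Members numbered 7 with total counts and 5 with 1 surrogate variable. In female active against sedentary pain (1730 genes, 4 members) they were 3010 and 15 with DESeq2, 174 and 1 with no filter, 2745 and 13 with the library number term, 0 and 0 in replicates 1 and 2, with only the groups compared and with 2 libraries left out. Members numbered 2 with total counts and 9 in replicates 3 and 4. Female active pain against control gave 125 genes with DESeq2 and 155 in replicates 3 and 4. Male sedentary and active pain against control gave 270 and 127 genes and 2 and 1 members with DESeq2, and 5 and 7 genes with 1 surrogate variable. The sex differences gave, for sedentary pain against control, active pain against control and active against sedentary pain, 15, 3 and 133 genes with DESeq2. In replicates 3 and 4 they gave 1349, 11 and 1222 genes, with 1 (mt-Tt), 0 and 3 members (mt-Rnr1, mt-Ti and mt-Co3).

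With 1 sample left out, female sedentary pain against control gave 2486 to 6674 genes and 3 to 16 members, and female active against sedentary pain 0 to 4316 and 0 to 17. The sex differences, in the same order, gave 0 to 18, 0 to 1 and 0 to 2174 genes, with 0 to 1 members in the third. In fits with total counts the median of all genes shifted to 0.17 in female sedentary pain against control and to -0.19 in active against sedentary pain. The members' signs are relative to these.

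The replicate numbers were not taken as pairs, since no comparison had all 4 same-numbered correlations of deviations above 0.1 (-0.651 to 0.572). In female active pain against control they were 0.129, 0.399, 0.308 and 0.0533. There replicates 1, 2 and 3 correlated best with their own number. With the replicate block, female sedentary pain against control gave 3739 genes and 10 members, female active against sedentary pain 1629 and 3, and the other comparisons 0. Under it mt-Nd4l was at -3.57 (adjusted p = 0.0532) in sedentary pain. Of the members called in female sedentary pain against control, mt-Tl1 lost its call in 2 of 27 alternatives, mt-Co2 in 3 and mt-Tt in 14 of 26. The call was lost in 13 of 27 for mt-Cytb, mt-Nd2 and mt-Nd6, 12 for mt-Nd3, 11 for mt-Nd1 and 10 for mt-Co1. It was lost in 7 of 27 for mt-Nd5, 6 for mt-Tm, 4 for mt-Tw and 4 of 26 for mt-Nd4l. The 17 untested tRNAs had too few counts for the filter, and the cause was not tested.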
